A study of Mus musculus with 2 samples.

Results

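Non-cycling B cell precursors of the mouse cochlea numbered 196 of the 1285 cells that could be given to a condition, and 196 of the 1556 cell barcodes in all. They were chosen from unique molecular identifier (UMI) counts, each UMI standing for 1 captured transcript. A cell had to hold at least 200 genes, at most 10% mitochondrial UMIs, and a leading hashtag with at least 10 UMIs and at least 80% of the hashtag UMIs. It then had to hold at least 3 UMIs of Cd79a and fewer than 300 UMIs of S100a8 plus S100a9 per 10000. It also had to hold fewer than 3 UMIs of Siglech, fewer than 20 of Jchain, fewer than 3 of Mki67 plus Top2a, and fewer than 4 of Ms4a1 plus Ighd plus Fcmr. These limits remove neutrophils, plasmacytoid dendritic cells, plasma cells, dividing cells and B cells past the precursor stage. The levels of these genes are therefore given as a description only.

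The cells were living CD45+ leukocytes sorted from enzyme-digested cochleae of mice taken 3, 7 or 14 days after noise exposure, and of control mice. The controls are called sham-treated in the protocol and untreated in the design text, and are called sham here. Cochleae of 6 mice were pooled per condition, each pool was stained with its own hashtag antibody, and the 4 pools were read as 1 droplet library. There was 1 pool per condition, so no comparison between conditions has a replicate check and none was tested. The labels used here give no strain, sex or age, no noise level, and no statement on whether bone around the cochlea was removed before digestion. Intervals are exact 95% intervals of the counts. They cover counting error only, and neither the spread between mice nor that between pools. Intervals of gene levels and gene ratios treat the UMIs of 1 cell as independent. They therefore leave out the spread between cells too, and can be too narrow where few cells carry a gene.

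B cell precursors assemble their antigen receptor genes in steps. The recombinase made of RAG1 and RAG2 cuts the immunoglobulin loci, and the terminal transferase encoded by Dntt adds bases at heavy chain joints. A finished heavy chain pairs with the surrogate light chain, made of the products of Vpreb1 or Vpreb2 and Igll1, to form the pre-B cell receptor together with CD79A and CD79B. Signalling by that receptor is followed by division, by loss of the surrogate light chain and by rearrangement of the kappa and lambda light chain genes. This sequence is best known from bone marrow.

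The class passed the check against its 5 markers, although only a minority of its cells carried the earliest ones. Cd79a, which the rule required, had a median of 12 UMIs per cell and at most 50. Vpreb3, a chaperone-like protein that binds immunoglobulin chains in precursors, was detected in 196 of 196 cells, against 4.17% of 480 neutrophils, which should lack it. Rag1 was detected in 77.6% of the class (71.1 to 83.2) and in 0.208% of neutrophils. Vpreb1 was detected in 28.6% of the class and Dntt in 22.4%, against 0.625% of neutrophils for each. Neutrophils were the deeper cells, with a median of 9560 UMIs against 5484.5 in the class. With every cell thinned to 2000 UMIs, which left out 3 precursors and 17 neutrophils, Rag1 was found in 52.3% of the class and 0.0676% of neutrophils.

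Cells near the limits were few. Of the cells that met the other limits, 6 held 2 Cd79a UMIs and stayed outside, and 4 held 3 and were inside. Among the members 182 had no UMI of Mki67 or Top2a and 14 had 1, whereas none had 2, and the nearest cells outside were 2 with 4. The late genes Ms4a1, Ighd and Fcmr summed to 3 UMIs in 12 members, and 6 cells with 4 fell outside. Cells that missed only the division limit numbered 69, called cycling below, and those that missed only the late limit numbered 103, called later B cells.

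Depth within the class was alike in the 4 pools. Its median UMIs per cell were 5234.5 in the sham pool, 5768.5 on day 3, 5180 on day 7 and 5521 on day 14, and its median mitochondrial percentages lay between 4.93 and 5.39. Summed over the class, the pools held 400049, 380726, 139722 and 230068 UMIs in the order sham, day 3, day 7 and day 14, so that day 7 gave the least precise values. The gene and hashtag files shared all 1556 barcodes and held the same gene counts. Scrublet, a doublet caller, marked 18 barcodes in the data and none of the 196 cells.

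The genes that split the class below are those of the surrogate light chain and Dntt, and their promoters are shown because Vpreb1 and Vpreb2 are near-copies that share sequence upstream. The lines give RefSeq sequence on build GRCm38.p6, the assembly also known as mm10, from 250 bases before the RefSeq gene start, 5′ to 3′ on the gene's strand. Capitals mark CAGNTG, an E-box that E proteins such as the product of Tcf3 can bind, searched on both strands. Vpreb2 is cut short because a GENCODE transcript begins inside its window, and the Vpreb1 stretch lies within a noncoding transcript of the same gene.
Vpreb1, chr16:16869256-16869505, minus strand: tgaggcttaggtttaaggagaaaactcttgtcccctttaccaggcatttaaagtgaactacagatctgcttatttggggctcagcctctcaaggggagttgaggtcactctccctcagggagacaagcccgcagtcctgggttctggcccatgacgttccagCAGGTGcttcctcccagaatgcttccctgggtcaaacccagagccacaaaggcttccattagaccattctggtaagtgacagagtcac
Vpreb2, chr16:17980315-17980427, plus strand: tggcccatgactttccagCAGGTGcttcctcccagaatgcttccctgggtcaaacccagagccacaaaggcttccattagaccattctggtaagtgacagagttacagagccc
Igll1, chr16:16863986-16864235, minus strand: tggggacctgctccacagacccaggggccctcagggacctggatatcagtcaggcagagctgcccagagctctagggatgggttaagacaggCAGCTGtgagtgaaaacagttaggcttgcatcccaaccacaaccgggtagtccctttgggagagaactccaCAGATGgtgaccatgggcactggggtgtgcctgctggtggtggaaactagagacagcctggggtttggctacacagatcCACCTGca
Dntt, chr19:41029025-41029274, plus strand: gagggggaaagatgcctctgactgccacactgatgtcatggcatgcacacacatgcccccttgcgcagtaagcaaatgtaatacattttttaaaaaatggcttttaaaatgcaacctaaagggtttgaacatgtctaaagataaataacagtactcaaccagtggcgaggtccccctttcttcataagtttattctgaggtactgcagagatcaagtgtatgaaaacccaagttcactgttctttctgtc
Vpreb1 and Vpreb2 shared an identical run of 91 bases, from -94 to -4 before the Vpreb1 start and from -238 to -148 before the Vpreb2 start, and that run held 1 E-box in each. Igll1 had 3 E-boxes in its line and Dntt none, whereas 44.8% of 32851 RefSeq promoters held at least 1 in the 250 bases before the gene start. The Vpreb1 and Vpreb2 transcripts, of 766 and 759 bases, were 96.5% identical, also over their last 200 bases, where a 3′ library is read. How the counting split reads between them is not stated, so the values of Vpreb1 and Vpreb2 are uncertain relative to each other.

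The class held a smaller share of the day 3 and day 7 pools than of the sham pool. It made up 20.5% of assigned sham cells (70 of 341; 16.4 to 25.2), 11.3% on day 3 (62 of 551; 8.74 to 14.2), 12.04% on day 7 (26 of 216; 8.02 to 17.1) and 21.5% on day 14 (38 of 177; 15.7 to 28.3). On day 3 the ratio to sham was 0.548 (0.383 to 0.783), on day 7 it was 0.586 (0.359 to 0.932), and on day 14 1.05 (0.685 to 1.57). Neutrophils moved the other way, with 22.6% of sham cells, 46.1% on day 3, 35.6% on day 7 and 40.7% on day 14.

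Shares of 1 sorted pool sum to a fixed total, so the class was also counted outside neutrophils. It then made up 26.7% of sham cells, 21.0% on day 3, 18.7% on day 7 and 36.2% on day 14. Set against sham, day 3 had a ratio of 0.787 (0.550 to 1.12), day 7 one of 0.700 (0.428 to 1.11) and day 14 one of 1.35 (0.888 to 2.04), and each interval includes 1. Fewer precursors per cochlea and more of other leukocytes cannot be told apart from these shares. Within the B lineage (members, cycling and later cells together) the members were 53.4% in the sham pool, 52.5% on day 3, 41.9% on day 7 and 66.7% on day 14 (52.9 to 78.6).

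**Figure D1:**
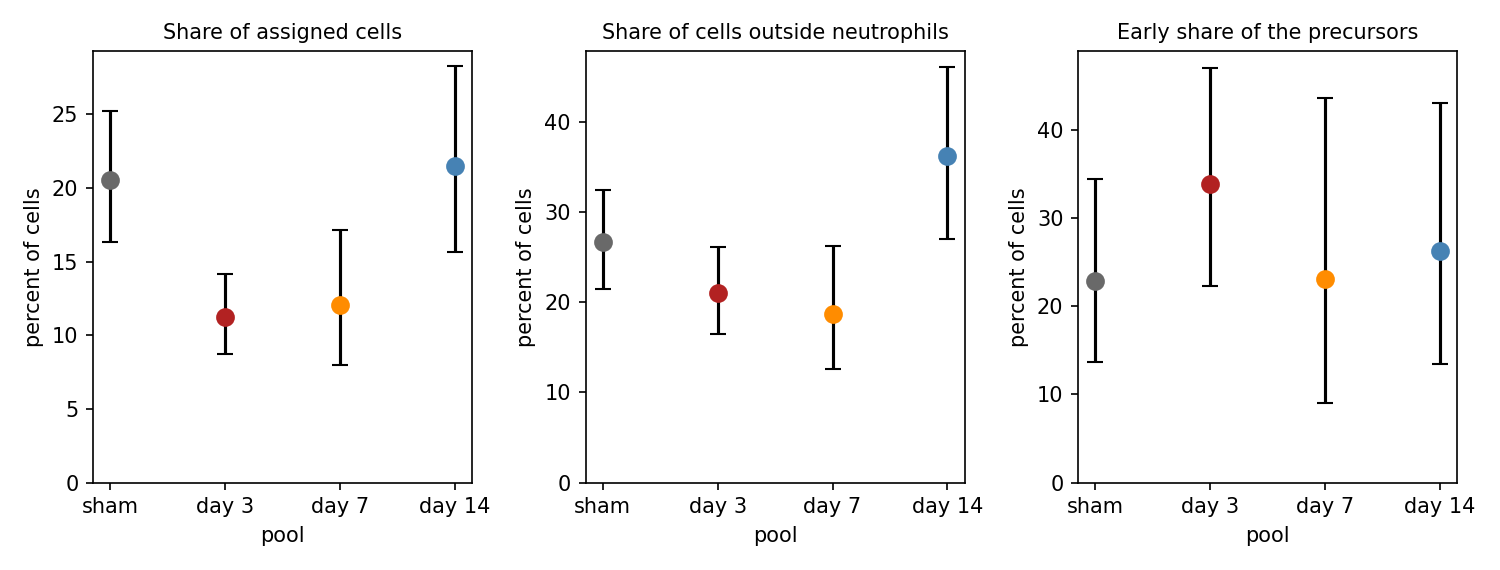
Percent of cells in each pool, in the order sham, day 3, day 7 and day 14, for the class among assigned cells (left), the class outside neutrophils (middle) and early cells within the class (right). Points are the 1 value per pool and bars are exact 95% intervals of the counts. In the left panel day 3 (11.3%) and day 7 (12.04%) lie below sham (20.5%), and the day 3 interval alone does not overlap that of sham, while in the other panels every interval does.

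The class consisted of a surrogate light chain part and a larger part without it. Summed over Vpreb1, Igll1 and Dntt, 137 of the 196 cells held no UMI, 4 held 1, 2 held 2 and 1 held 4, and the median of those with at least 3 was 69 and the highest 130. The 53 cells with at least 3 UMIs are called early and the 143 others remaining. The cut is a range on a sum and not a type, but only 7 cells lay between 1 and 5 UMIs. Early cells were deeper, with a median of 7332 UMIs and 2620 genes, against 5090 UMIs and 1944 genes in remaining cells.

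The early genes were found together in the same cells. Vpreb1 and Igll1 were both detected in 52 cells, with Igll1 alone in 1 and Vpreb1 alone in 4. Dntt and Igll1 were both detected in 42 cells. Early cells held 99.7% of the Vpreb1 UMIs, 99.9% of Igll1 and 99.7% of Dntt, which the cut fixes. They also held all 189 UMIs of Vpreb2, whose reads cannot be told from those of Vpreb1 with certainty. Of Lef1, a transcription factor of early lymphoid stages that the cut did not use, they held 89.6%.

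Rag1 spanned both parts, unlike the surrogate light chain. Early cells held 38.9% of its UMIs and 64.1% of those of Rag2, and Rag1 was detected in 86.8% of early and 74.1% of remaining cells. Igkc, the kappa constant region, lay at the other end, with 1.92% of its UMIs in early cells. Its median per cell was 0 UMIs in early and 24 in remaining cells, and its highest was 166.

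**Figure D2:**
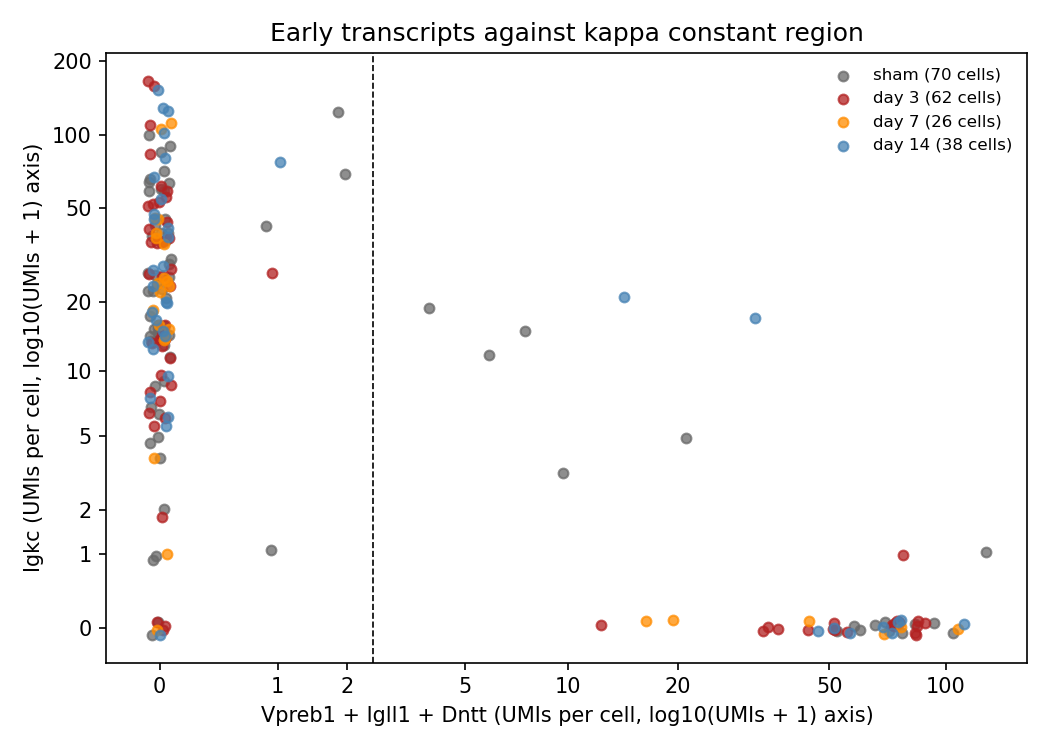
Each point is 1 of the 196 cells, with summed UMIs of Vpreb1, Igll1 and Dntt on the x axis and UMIs of Igkc on the y axis, both as log10(UMIs + 1) with a small random shift so that equal values can be told apart, and the dashed line is the limit of 3 UMIs that defines early cells. The 53 early cells mostly lie at high x with Igkc at or near 0, and the 143 remaining cells lie at low x with a median of 24 Igkc UMIs.

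Dntt divided the early cells again. Of the 53, 42 held at least 3 Dntt UMIs and the other 11 held none at all. Levels below are counts per 1000000 (CPM) of the summed gene UMIs of a group. Vpreb1 stood at 4681 CPM in early cells with Dntt, 2165 in early cells without, 6.69 in remaining, 666 in cycling and 3.59 in later cells. Igll1 followed the same order, with 2370.0, 977, 1.34, 414 and 0 CPM. The cut fixes that early cells without Dntt held more of these transcripts than remaining cells, but not that they held less than early cells with Dntt.

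Some genes outside the cut had summed levels in the 11 cells without Dntt between those of the others. The next 4 were chosen for this after their values were seen. Lef1 measured 929 CPM in early cells with Dntt, 643 in early cells without and 54.9 in remaining cells. Ighm, the heavy chain constant gene, measured 1778, 3191 and 7459.8 CPM in these groups. Cd74, the class II invariant chain, measured 31.0, 1163 and 1712 CPM, and 12106 in later cells. Bach2, a transcriptional repressor of the B lineage, measured 127, 507 and 873 CPM. Other genes did not lie between: in the 11 cells Rag1 (259.8 CPM), Vpreb3 (3006 CPM), Ebf1 (4676 CPM) and Pax5 (272 CPM) were below both other parts. The 11 cells were unlike each other, with Igkc detected in 7 of them and Cd74 in 6. One day 3 cell among them, with no Igkc UMI, held 85 UMIs of Vpreb1 and Igll1 and 16729 UMIs in all. A sum between those of the other groups can come from a mixture of cells, so it does not show an intermediate state.

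Kit, the stem cell factor receptor typical of pro-B cells, was low, at 52.7 CPM in early cells with Dntt (17 UMIs), 0 in those without and 4.02 in remaining cells. Il7r, the interleukin 7 receptor chain that precursors depend on, was present throughout, at 418, 272 and 616 CPM, against 68.3 in later cells. Il2ra, which encodes CD25 of small pre-B cells, had no UMI in early cells with Dntt and 157 CPM in remaining cells. Cd2 behaved likewise, with 0 and 217 CPM. The progenitor genes Cd34 and Flt3 were nearly missing, with 3 UMIs and 1 UMI in the 42 early cells with Dntt.

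Transcription factors differed between the parts as well. Erg was high in early cells with Dntt (152 CPM) and near 0 in remaining cells (1.34 CPM). Irf4, which acts in light chain rearrangement, had the reverse order, with 89.8 and 327 CPM, and so had Spib, with 115 and 727 CPM. The lineage factors Ebf1 (6404 and 5713 CPM) and Pax5 (372 and 519 CPM) were close in both parts. Cxcr4, the receptor that holds precursors near Cxcl12-making stroma, was 439.9 CPM in early cells with Dntt and 1463 in remaining cells.

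**Figure D3:**
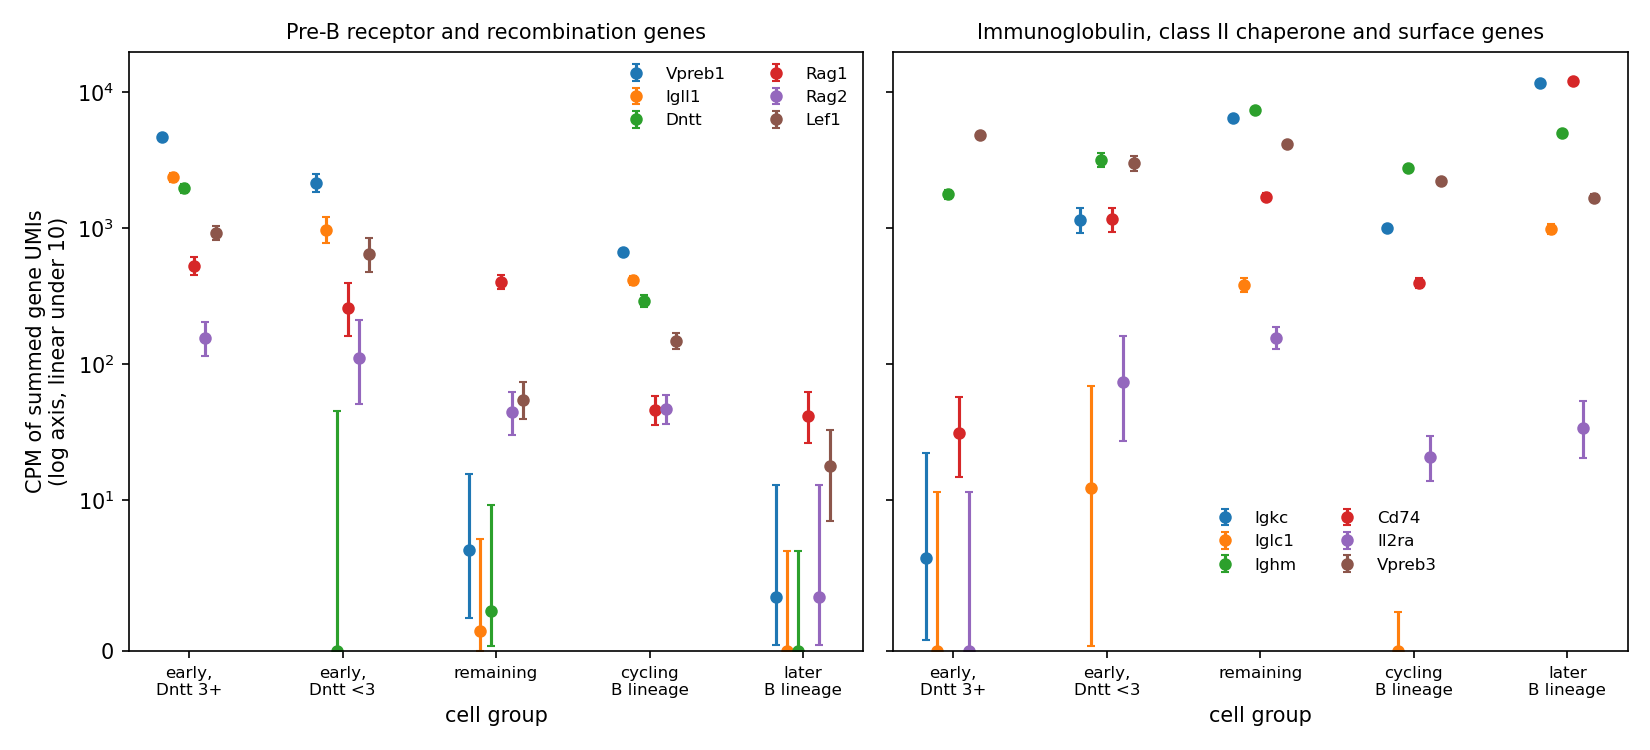
CPM of summed gene UMIs (log axis, linear under 10) in early cells with at least 3 or under 3 Dntt UMIs, remaining cells, cycling B lineage and later B lineage, with exact 95% counting intervals. Vpreb1, Igll1 and Dntt fall to under 10 CPM in remaining cells while Rag1 stays at 404 CPM, and Igkc, Iglc1 and Il2ra are highest in remaining or later cells.

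Other genes separated the 2 parts as well. Among genes with at least 30 UMIs, those with the highest lower bound of the ratio of early to remaining cells included Arpp21 (134 UMIs in early cells and 0 in remaining), Dlg2 (61 and 0), Tmem176b (47 and 0) and Mmrn1 (32 and 0). Gimap6 measured 367 against 4.02 CPM, Impdh1, an enzyme of guanine nucleotide synthesis, 277 against 6.69 CPM, Selenom 164 against 2.68 CPM and Fcrl6 280.0 against 8.03 CPM in early against remaining cells. In the other direction stood the light chain constant genes, with Iglc2 at 0 against 526 UMIs and Iglc3 at 0 against 291. Ly6d measured 2.48 against 189 CPM, Ikzf3, which encodes Aiolos, 2.48 against 181 CPM, Fcrla 96.6 against 1137 CPM and Myl4 49.6 against 625 CPM.

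Set against all 1089 other assigned cells, the class was led by Rag1, with 429 against 7.57 CPM and a ratio of 56.7 (45.8 to 70.9). The secreted protease gene Adamts7 came next, with 73.9 against 1.41 CPM. Fcrl6 (103 against 2.67 CPM), Arpp21 (116 against 4.01 CPM), Vpreb1 (1469.7 against 72.1 CPM) and Igll1 (734 against 44.3 CPM) rested on the early part. Other leading genes were found in nearly every member. Tifa was detected in 98.5% of the class (1498 against 91.9 CPM), Arl5c in 97.4% (1285 against 69.5 CPM), Atp1b1, a sodium pump subunit, in 96.4% (1069 against 59.3 CPM), and Fam129c and Cecr2 in 93.9% each. Ebf1, a founding factor of the B lineage, was detected in every member (5834 against 393 CPM). Because the rule uses gene counts of the same cells, these contrasts are a description.

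Rag1, Vpreb3 and Sox4 were higher in the class than in its neighbours in the B lineage, whereas in its larger part Rag2 and Dntt were not higher than in cycling cells. Rag1 measured 529.8 CPM in early cells with Dntt and 404 in remaining cells, against 46.2 in cycling and 41.3 in later cells. Vpreb3 measured 4876 and 4154 CPM, against 2242 and 1674. Sox4 measured 685 and 1062 CPM, against 438 and 111. Rag2 measured 155 and 44.2 CPM, against 46.9 and 3.59, and Dntt stood at 2.68 CPM in remaining and 292 in cycling cells. Cycling cells were deeper, with a median of 17470 UMIs, and Rag1 was detected in 36.2% of them as deposited and in 9.05% after thinning, against 52.3% of the class.

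Early cells made up a similar part of the class in each pool at this depth. They were 16 of 70 in the sham pool (22.9%; 13.7 to 34.4), 21 of 62 on day 3 (33.9%; 22.3 to 47.0), 6 of 26 on day 7 (23.1%; 8.97 to 43.6) and 10 of 38 on day 14 (26.3%; 13.4 to 43.1). The day 3 share was the highest of the 4, and its interval overlaps that of sham. Early cells without Dntt numbered 5 in the sham pool, 2 on day 3, 1 on day 7 and 3 on day 14.

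Surrogate light chain transcripts were higher on day 3 than in sham. For Vpreb1 the pools gave 473 UMIs in the sham pool, 728 on day 3, 169 on day 7 and 321 on day 14, in 18 sham, 22 day 3, 6 day 7 and 10 day 14 cells. The levels were 1182 CPM in the sham pool, 1912 on day 3, 1209.5 on day 7 and 1395 on day 14, a ratio to sham of 1.62 (1.44 to 1.82) on day 3 and 1.18 (1.02 to 1.36) on day 14. In cells with at least 500 genes and at most 5% mitochondrial UMIs, called the strict cell filter below, the day 3 log2 ratio of Vpreb1 was 0.39 against 0.69, under the limit of 1.5-fold used below. That filter left 34 cells of the class in the sham pool, 34 on day 3, 9 on day 7 and 16 on day 14, with a larger share of early cells. For Igll1 the levels were 505 CPM in the sham pool, 948 on day 3, 716 on day 7 and 791 on day 14, with ratios of 1.88 (1.58 to 2.24), 1.42 (1.10 to 1.81) and 1.57 (1.28 to 1.92), so sham was the lowest pool. Vpreb2 had 172 CPM in the sham pool, 226 on day 3, 122 on day 7 and 73.9 on day 14, lowest on day 14, where its ratio was 0.428 (0.236 to 0.736). Vpreb3 hardly differed, with 4542 CPM in the sham pool, 4097 on day 3, 4552 on day 7 and 3942 on day 14.

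A gene counted as called when its ratio to sham was at least 1.5-fold either way, counting genes whose UMIs in the day's and the sham pool summed to 30 or more. On day 3, 2 of the 4 surrogate light chain genes were called higher and none lower, where 8.97% of 3879 measured genes were higher and 8.12% lower. Within early cells alone none of the 4 was called in either direction on day 3, against 13.2% higher and 12.8% lower of 1604 genes, and their median log2 ratio was 0.08. Vpreb1 in early cells measured 3714 CPM in the sham pool, 4379 on day 3, 4534 on day 7 and 4336 on day 14, and Igll1 1599.5 CPM in the sham pool, 2174 on day 3, 2683 on day 7 and 2445 on day 14. Sham was the lowest pool for each of the 2 genes also among early cells. In bulk sums of this kind, more cells of a type and more transcript per cell cannot be told apart without such a split.

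Recombination genes did not follow the surrogate light chain. Rag1 measured 439.9 CPM in the sham pool, 483 on day 3, 379 on day 7 and 352 on day 14, and the intervals of all 3 ratios include 1 (1.10 (0.889 to 1.36), 0.862 (0.622 to 1.18) and 0.8003 (0.607 to 1.05)). Dntt measured 599.9 CPM in the sham pool, 622 on day 3, 437 on day 7 and 439 on day 14, and its ratio was 0.728 (0.540 to 0.968) on day 7 and 0.732 (0.574 to 0.927) on day 14. In early cells alone Dntt was 1885 CPM in the sham pool, 1427 on day 3, 1637 on day 7 and 1364 on day 14, highest in sham. Rag1 in remaining cells was 398 CPM in the sham pool, 452 on day 3, 390.4 on day 7 and 359 on day 14. Of the recombination list, which adds end-joining genes such as Lig4 and Xrcc6, 0 were called higher and 1 lower of 9 measured on day 3, 0 and 1 of 7 on day 7, and 0 and 1 of 8 on day 14. The background on day 7 was 8.08% higher and 13.3% lower of 2909 genes, and on day 14 8.04% higher and 9.99% lower of 3294.

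Over the whole class, lists of receptor signalling, lineage factors and survival lay near the background shares given above. Of 17 measured B cell receptor signalling genes none was called on day 3 (median log2 ratio -0.29), and none of 16 on day 7. On day 14, 1 of 16 was higher and 1 lower, namely Plcg2, a phospholipase, at 1.51 (0.788 to 2.88) and Pik3cd, a lipid kinase, at 0.635 (0.355 to 1.09). Of the transcription factors, 1 of 24 was lower on day 3 and 1 of 23 on day 7, in each case Id3, an inhibitor of E proteins, which had 43 UMIs in the sham pool, 24 on day 3, 2 on day 7 and 30 on day 14. On day 14 only Bcl11a was called, at 1.77 (1.21 to 2.58). Ebf1 measured 6112 CPM in the sham pool, 5587 on day 3, 6091 on day 7 and 5603 on day 14, and Pax5 479.9 CPM in the sham pool, 383 on day 3, 587 on day 7 and 478 on day 14, so Ebf1 varied little, while Pax5 was highest on day 7 and lowest on day 3 and passed the limit against sham on neither. Of the interleukin 7 and survival genes, 1 of 10 was higher on day 3 (the cyclin gene Ccnd2) and 2 of 9 on day 7 (Jak1 and Bcl2l1), with none lower. Ccnd2 had 22 UMIs in early cells on day 3 and 4 in early sham cells, but 0 and 10 in remaining cells. Over all pools 3 early cells without Dntt held 18 of its UMIs, so its call rests on few cells. On day 14 none of 9 was higher and Il7r alone was lower, at 0.663 (0.518 to 0.844). It measured 622 CPM in the sham pool, 465 on day 3, 687 on day 7 and 413 on day 14. Within early cells, split out for day 3 only, 5 of 9 receptor signalling genes were lower and 1 higher (median log2 ratio -0.92). Of 21 lineage factors 8 were lower and none higher (-0.33), beside 12.8% lower and 13.2% higher of 1604 genes. These counts rest on 21 early cells on day 3 and 16 in sham. In remaining cells on day 3 none of 14 and none of 22 genes of these lists was lower.

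Transcripts of MHC class II antigen presentation were lower after noise than in sham, most widely on day 3. Cd74 had 604 UMIs in the sham pool, 342 on day 3, 179 on day 7 and 258 on day 14, or 1509.8 CPM in the sham pool, 898 on day 3, 1281 on day 7 and 1121 on day 14. H2-Aa, the class II alpha chain, had 195 UMIs in the sham pool, 64 on day 3, 48 on day 7 and 75 on day 14, detected in 35 sham, 15 day 3, 10 day 7 and 14 day 14 cells. Its levels were 487 CPM in the sham pool, 168 on day 3, 344 on day 7 and 326 on day 14, so that every noise pool lay below sham and day 3 was the lowest. The ratios of H2-Aa to sham were 0.345 (0.256 to 0.460) on day 3, 0.705 (0.503 to 0.971) on day 7 and 0.669 (0.505 to 0.877) on day 14. On day 7 and day 14 single cells held 35.4% and 30.7% of its UMIs, against 15.6% on day 3 and 9.74% in sham.

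The beta chain and loading genes shared the day 3 direction. H2-Ab1, the beta chain, measured 292 CPM in the sham pool, 142 on day 3, 179 on day 7 and 130.4 on day 14, with ratios of 0.485 (0.345 to 0.675), 0.612 (0.380 to 0.948) and 0.446 (0.288 to 0.671). Its day 14 log2 ratio was -1.17, but -0.14 under the strict cell filter, which leaves 16 day 14 cells and ends that call. H2-Eb1 had 36 UMIs in the sham pool, 4 on day 3, 8 on day 7 and 22 on day 14, a ratio of 0.117 (0.0302 to 0.326) on day 3, while on day 14 it was 1.06 (0.596 to 1.86) with 45.5% of the UMIs in 1 cell. H2-DMa, which helps to load peptide, had 27 UMIs in the sham pool, 7 on day 3, 4 on day 7 and 6 on day 14, a ratio of 0.272 (0.1002 to 0.641) on day 3. H2-Ob, which restrains that loading, went the other way, with 94.99 CPM in the sham pool, 116 on day 3, 136 on day 7 and 174 on day 14 and a day 14 ratio of 1.83 (1.14 to 2.93). Of the 6 measured class II genes, 5 were lower and none higher on day 3 (median log2 ratio -1.29), 3 lower on day 7 (-0.58), and 2 lower and 1 higher on day 14 (-0.50). Over all measured genes these medians were -0.00, -0.03 and -0.02, and 8.12%, 13.3% and 9.99% were lower in that order of days. Early cells, in which Cd74 was low, were 33.9% of the class on day 3 and 22.9% in sham, with overlapping intervals. Among early cells Cd74 had 8 UMIs on day 3 against 57 in sham, a ratio of 0.107 (0.0440 to 0.225). Over all pools the 11 early cells without Dntt held 94 Cd74 UMIs and the 42 with Dntt held 10. Early cells without Dntt numbered 5 in sham and 2 on day 3, so this ratio rests on few cells.

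Within remaining cells alone the day 3 ratios of H2-Aa, H2-Ab1, H2-Eb1 and Cd74 were nearer to 1 and that of H2-Ob farther from it (1.48 (0.836 to 2.63)), and H2-Aa, H2-Ab1 and H2-Eb1 were still called lower. H2-Aa was 0.446 (0.330 to 0.596) on day 3, 0.701 (0.499 to 0.968) on day 7 and 0.537 (0.391 to 0.728) on day 14. H2-Ab1 was 0.594 (0.413 to 0.845), 0.649 (0.401 to 1.01) and 0.375 (0.225 to 0.598), and Cd74 0.779 (0.677 to 0.894), 0.870 (0.730 to 1.03) and 0.706 (0.601 to 0.827). H2-Ob was 2.53 (1.48 to 4.39) on day 14. Of the 5 genes measured there, 3 were lower and none higher on day 3, where 9.77% of 2619 genes were lower and 6.64% higher. On day 7, 2 were lower and 1 higher, beside 13.4% and 7.62% of 2060 genes. On day 14, 3 were lower and 1 higher, beside 11.3% and 7.1% of 2339 genes.

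Class II transcripts in the droplets at large were low where they should be missing. Neutrophils held 35.3 CPM of H2-Aa and 154 of Cd74, below every pool of the class for these genes, whereas later B cells held 2316 CPM of H2-Aa. For H2-Eb1 the neutrophil level was 33.2 CPM, above the 10.51 CPM of the class on day 3. In early cells alone Cd74 stood at 451 CPM in the sham pool, 48.2 on day 3, 26.8 on day 7 and 513 on day 14. Its early levels on day 3 and day 7 thus lay below that of neutrophils. Genes of class I presentation showed no such pattern. None of 8 measured class I genes was called on any day, with medians of 0.18, 0.13 and 0.03 on days 3, 7 and 14. B2m, the class I light chain, measured 1412 CPM in the sham pool, 1460.4 on day 3, 1195 on day 7 and 1304 on day 14.

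**Figure D4:**
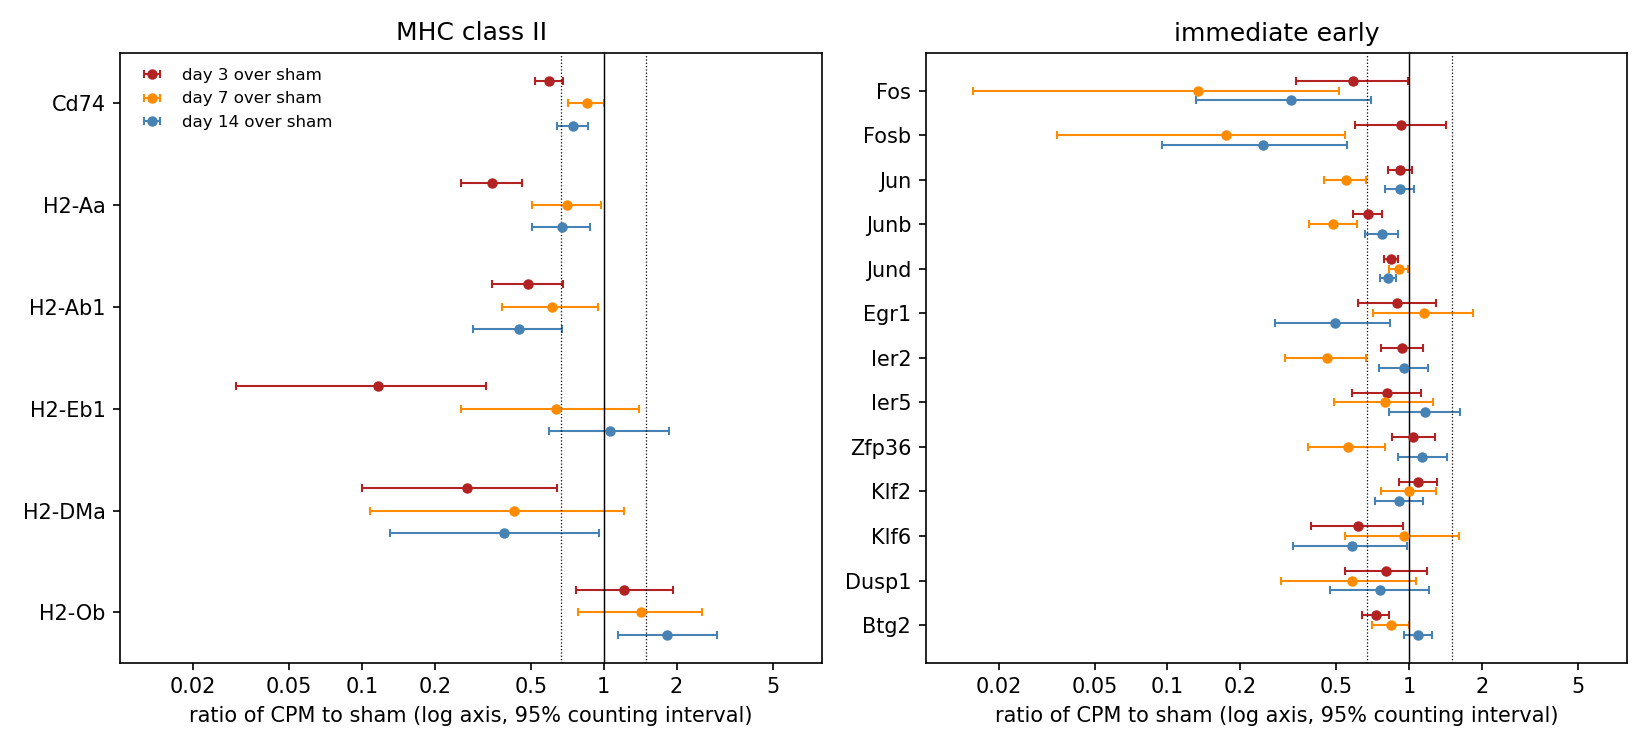
Ratio of CPM to sham on a log axis with exact 95% counting intervals for 6 MHC class II genes and 13 immediate early genes, for day 3, day 7 and day 14 over the whole class, with dotted lines at 1.5-fold. H2-Eb1 on day 3 and Fos and Fosb on day 7 lie farthest below 1, and H2-Ob lies above 1 on each day.

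Immediate early transcripts were lower on day 7. Fos, a subunit of the AP-1 factor, had 43 UMIs in the sham pool, 24 on day 3, 2 on day 7 and 8 on day 14, in 17 sham, 16 day 3, 2 day 7 and 5 day 14 cells. Fosb had 49 UMIs in the sham pool, 43 on day 3, 3 on day 7 and 7 on day 14, and Junb 531 UMIs in the sham pool, 340 on day 3, 90 on day 7 and 235 on day 14. The day 7 ratios were 0.133 (0.0156 to 0.511) for Fos, 0.175 (0.0349 to 0.543) for Fosb and 0.485 (0.384 to 0.608) for Junb. Day 14 lay below sham too for Fos (0.324 (0.131 to 0.696)) and Fosb (0.248 (0.0949 to 0.551)), but Jun was near sham there (0.914 (0.797 to 1.05)). Of the measured genes of the list, 2 of 15 were lower on day 3, 7 of 13 on day 7 and 4 of 13 on day 14, and none was higher on any day, beside 8.12%, 13.3% and 9.99% lower of all measured genes. The median log2 ratios were -0.16, -0.78 and -0.29.

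Jun, the partner subunit, measured 1559.8 CPM in the sham pool, 1429 on day 3, 852 on day 7 and 1426 on day 14, lowest on day 7 (0.546 (0.445 to 0.665)). Ier2 and Zfp36, a factor that destabilises AU-rich transcripts, were likewise lowest there, with ratios of 0.456 (0.306 to 0.661) and 0.558 (0.381 to 0.796). Egr1 did not follow on day 7 (1.15 (0.709 to 1.83)), where 1 cell held 51.9% of its 27 UMIs. The 6 early cells of day 7 had little of these transcripts, with Junb at 107 CPM against 1409.5 in early sham cells. In remaining cells alone the day 7 ratio was 0.0862 (0.00212 to 0.517) for Fos, 0.186 (0.0370 to 0.582) for Fosb, 0.617 (0.485 to 0.777) for Jun and 0.651 (0.508 to 0.826) for Junb, and 4 of 13 genes were lower and 1 higher (Egr1), beside 13.4% lower and 7.62% higher of all genes measured there. Each pool was stained on its own before the pools were joined, so handling of a pool and time after noise cannot be told apart.

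Activation, NF-kB and glucocorticoid genes included members that were lower on day 7. Cd69, which encodes an early activation antigen that retains cells in tissue, measured 1107 CPM in the sham pool, 769.6 on day 3, 529.6 on day 7 and 1208 on day 14, lowest on day 7 (0.478 (0.369 to 0.613)). Nfkbia, the inhibitor made in feedback to NF-kB, measured 1475 CPM in the sham pool, 1022 on day 3, 1002 on day 7 and 1417 on day 14, with ratios of 0.693 (0.608 to 0.789) on day 3 and 0.679 (0.561 to 0.818) on day 7. Of the NF-kB list 2 of 11 genes were lower on day 3, 3 of 10 on day 7 and 2 of 11 on day 14, with none higher, beside 8.12%, 13.3% and 9.99% of all measured genes. In remaining cells 2 of 10 were lower and 1 higher on day 3, 0 and 1 of 8 on day 7, and none of 9 on day 14, beside 9.77%, 13.4% and 11.3% lower of all genes there. The glucocorticoid-responsive gene Tsc22d3 measured 457 CPM in the sham pool, 381 on day 3, 265 on day 7 and 313 on day 14, and 3 of 6 genes of its list were lower on day 7, against none of 7 on day 3 and none of 7 on day 14, beside 13.3% of all measured genes on day 7. In remaining cells only Txnip, at 0.561 (0.312 to 0.954), was lower among 5 genes of that list on day 7. Some genes, Dusp1, Icam1, Cxcr4 and Btg2 among them, stand in 2 lists, so the counts of the lists are not separate results.

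Several adhesion genes were lower on day 7, while few late surface genes were called. Of the niche homing and adhesion list, 2 of 10 genes were lower on day 3, 4 of 6 on day 7 and 1 of 6 on day 14, with none higher, beside 8.12%, 13.3% and 9.99% of all measured genes. The day 7 median log2 ratio of that list was -0.75, but 0.31 under the strict cell filter, which leaves 9 day 7 cells. In remaining cells 2 of 4 genes of the list were lower on day 7. Icam1 had 38 UMIs in the sham pool, 14 on day 3, 5 on day 7 and 12 on day 14, and Selplg, the selectin ligand, 89 UMIs in the sham pool, 66 on day 3, 17 on day 7 and 42 on day 14. The most abundant gene of that list, Cxcr4, stayed near sham, with 1125 CPM in the sham pool, 1035 on day 3, 1188 on day 7 and 1230.1 on day 14. Of late surface genes, 1 of 11 was higher and 2 lower on day 3. These were Ltb, lymphotoxin beta, at 1.61 (1.21 to 2.14), Cd55, a complement regulator, at 0.478 (0.299 to 0.746), and Tnfrsf13c, the BAFF receptor, at 0.657 (0.468 to 0.916). Of early surface genes none of 9 was called on day 3, and on day 14 Spn, which encodes CD43, had 1 UMI against 18 in sham.

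Type I interferon genes gave few measurable members. On day 3, 2 of 5 were higher, Ifi27l2a at 1.87 (1.33 to 2.65) and Trim30a at 1.84 (0.961 to 3.64), and none of 3 was called on day 7 or day 14. Of all measured genes 8.97% were higher on day 3. One day 3 cell held 32.7% of the Ifi27l2a UMIs, yet in remaining cells the ratio was 2.55 (1.76 to 3.75). Division genes that the rule did not use stayed low. Pcna, the replication clamp, had 10 UMIs in the sham pool, 26 on day 3, 6 on day 7 and 22 on day 14, a ratio of 3.83 (1.74 to 9.05) on day 14. Of the replication list 1 of 3 genes was higher on day 3, 1 of 2 on day 7 and 2 of 3 on day 14, with none lower. The background shares were 8.97%, 8.08% and 8.04% higher. In remaining cells 1 gene of that list was measured on each day, and it was called on day 7 only, as higher. Of 5 mitosis genes 1 was lower on day 3, 2 were higher on day 7 and none was called on day 14, beside 8.12% lower of all measured genes on day 3 and 8.08% higher on day 7. Btg1, an antiproliferative gene, measured 2872 CPM in the sham pool, 1781 on day 3, 2913 on day 7 and 2291 on day 14, a ratio of 0.620 (0.563 to 0.682) on day 3, while it was 0.748 (0.674 to 0.830) in remaining cells and therefore not called there.

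**Figure D5:**
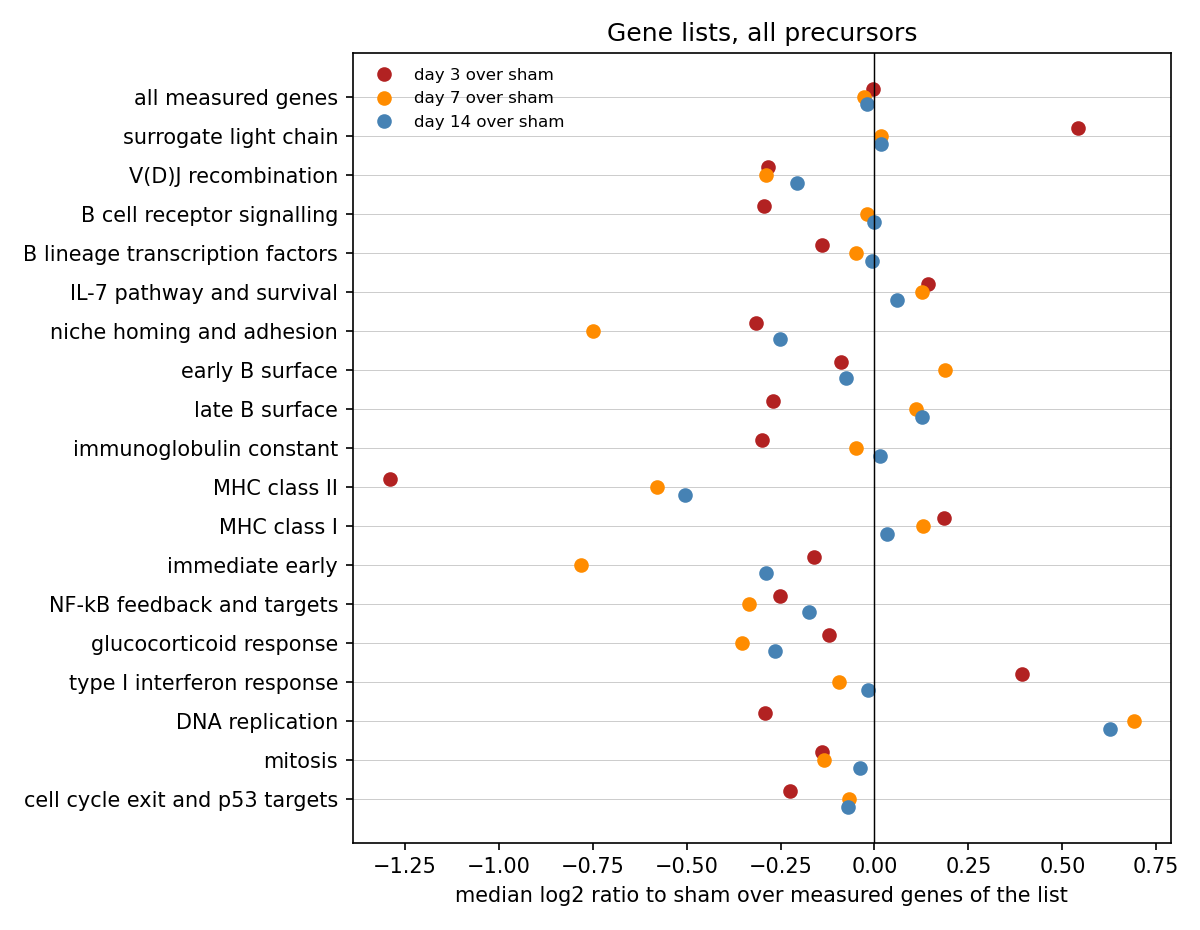
Median log2 ratio of CPM to sham over the measured genes of 18 gene lists and over all measured genes, in the whole class, for day 3, day 7 and day 14. The MHC class II median on day 3 (-1.29) and the immediate early median on day 7 (-0.78) lie well below the medians of all measured genes, and those of class I lie close to them.

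Genes called higher on day 3 by the bound of their interval nearest to 1 were led by Dkc1, a pseudouridine synthase, at 3.92 (1.98 to 8.45) (41 UMIs against 11 in sham), and Rasa1, a Ras GTPase activator, at 4.50 (1.94 to 12.1) (30 against 7). Igll1, Vpreb1, Ncl, Mrpl17, Mgst2, Anxa1, Zeb1 and Snrpc completed the 10. Ncl, which encodes nucleolin, measured 395 CPM in the sham pool, 743 on day 3, 458 on day 7 and 578 on day 14, with 23.7% of its day 3 UMIs in 1 cell, and its day 3 log2 ratio was 0.13 without the deepest 5% of the class. Genes lower on day 3 were led by H2-Eb1 and H2-Aa, followed by Rsph1 at 0.241, the demethylase gene Phf2 at 0.313 (0.159 to 0.578) and the stress gene Gadd45b at 0.407 (0.269 to 0.604). H2-DMa, Lrif1, Myo1e, Mturn and H2-Ab1 completed that 10. Rasa1 lay above sham on the other days too, at 3.27 (1.04 to 10.6) and 3.97 (1.55 to 11.4).

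Genes called higher on day 7 by the same ranking were led by Dynlt3, a dynein light chain, at 3.01 (1.53 to 5.97), Stxbp2 at 2.86 (1.49 to 5.51) and Mrps36 at 2.48 (1.41 to 4.34), followed by Rfc3, Hp1bp3, Upf3a, Qars, Plin3, Psma1 and Luc7l2. The call of Dynlt3 was lost under the strict cell filter, with 9 day 7 cells (log2 ratio 0.31), and that of Qars in remaining cells alone (0.52). The lower genes were led by Zfp36l2, a factor that destabilises transcripts, with 110 UMIs in the sham pool, 94 on day 3, 9 on day 7 and 46 on day 14 and a day 7 ratio of 0.234 (0.104 to 0.461). Id3 (0.133 (0.0156 to 0.511)), Fos, Fosb, Ube2j1 (1 UMI against 29 in sham), Junb, Cd69, Gadd45b (0.339 (0.163 to 0.634)), Gng2 (3 UMIs against 42) and Ppp1r15a (0.403 (0.235 to 0.654)) followed. With 26 cells on day 7, several of these rest on fewer than 10 UMIs.

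On day 14 Pcna led the higher genes, followed by Snrnp200, a spliceosome helicase, at 2.90 (1.64 to 5.24) (35 UMIs against 21 in sham) and Grn, progranulin, at 2.97 (1.58 to 5.75). Lyl1, a transcription factor of early blood cells, was at 3.48 (1.55 to 8.32) with 10 UMIs in the sham pool, 25 on day 3, 7 on day 7 and 20 on day 14, and Gbf1, Vasp, Impdh1, Ywhag, Gpcpd1 and Rheb completed the 10. Over all pools early cells held 112 of the 117 Impdh1 UMIs, so the call of Impdh1 rests on the early part. The lower genes were Rbm24, an RNA-binding protein gene among those that led the class, at 0.207 (0.0639 to 0.522) (5 UMIs against 42), Fosb, Kat6a at 0.279 (0.122 to 0.569), H2-Ab1, Tmcc1, Fos, Bbx, Vpreb2, Proser1 and Ddx24. Fos, Fosb, Gadd45b and H2-Ab1 therefore stood among the lowest genes on more than 1 day, and the days share the sham pool they are set against. The day 14 call of H2-Ab1 is the one that the strict cell filter ends.

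Transcripts of light chain constant regions were found in most remaining cells. Constant region counts alone do not show that a light chain gene was rearranged. With at least 10 UMIs of a constant region as the limit, 92 of the 143 remaining cells held kappa only, 14 lambda only, 19 both and 18 neither. Of the 53 early cells 48 held neither and 5 kappa only. Ighm in the class measured 5857 CPM in the sham pool, 4762 on day 3, 5661 on day 7 and 6333 on day 14, and Igkc 4262 CPM in the sham pool, 3651 on day 3, 4495 on day 7 and 5351 on day 14, so the highest pool for each was day 14 and the lowest day 3. In remaining cells the kappa-only counts were 33 of 54 in the sham pool, 24 of 41 on day 3, 16 of 20 on day 7 and 19 of 28 on day 14. Iglc1, Iglc2 and Iglc3 changed in unlike directions on day 7 (0.413 (0.218 to 0.727), 0.568 (0.411 to 0.772) and 1.66 (1.19 to 2.30)). Reads of Iglc2 and Iglc3, near-identical copies, may be split by the counting, and a few cells with high lambda levels carry most of these UMIs.

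Variable segments were seen only sparsely, as a 3′ library reads the other end of the transcript. A kappa variable segment was detected in 53.1% of remaining cells, 9.43% of early cells and 0 of 480 neutrophils, which allows a share of up to 0.766% there. Heavy chain segments had the reverse order, in 52.8% of early and 26.6% of remaining cells, with 10.4% of neutrophils as background. Lambda segments were found in 10.49% of remaining cells and in 0 of 53 early cells. Only 8 members held at least 3 UMIs of heavy and 13 of kappa segments, too few to describe the repertoire.

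Markers of other cell types were low in the class in every pool, except for the plasmacytoid dendritic cell and plasma cell lists. The 14 neutrophil markers, none of them at 0, summed to 4.599 UMIs per 10000 in the sham pool, 4.33 on day 3, 3.65 on day 7 and 4.91 on day 14, against 1078 in neutrophils. Of 10 T cell markers 7 were at 0, Cd3e among them, and the list ranged from 0.0435 to 0.286 per 10000. Of 8 natural killer cell markers 2 were at 0 (0.04999 to 0.174), and of 10 macrophage and monocyte markers 1 was at 0 (0.09999 to 0.358). Erythroid markers had 5 of 8 at 0, platelet markers 4 of 5, basophil and mast cell markers 4 of 6, and cochlear non-immune markers 7 of 12. The plasmacytoid list (2 of 8 at 0) gave 3.22 to 4.83 per 10000, against 3.35 in all other assigned cells. It was led by Tcf4, with 425 of its 480 UMIs. The plasma cell list (1 of 7 at 0) gave 8.30 to 12.2, against 1.89 in all other assigned cells, and was led by Mzb1, with 901 of 1082. Precursors express these 2 leading genes themselves. The neutrophil sum was lowest on day 7, at a ratio to sham of 0.794 (0.570 to 1.09), an interval that includes 1. S100a8 and S100a9, which the rule limits, were at 1.06 (0.837 to 1.34) and 1.11 (0.890 to 1.37) there. Fos and Junb were lowest on day 7 too, and neutrophils held 794 CPM of Fos. The part of free neutrophil RNA in the Fos and Junb differences was not tested.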

How the data were processed

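The deposited values are UMI counts per gene and per hashtag in each cell, made with Cell Ranger 3.1.0 per the file headers, on mm10 per the submitters' processing notes. The labels name a version 2 kit in 1 field and a version 3 kit in another. The authors' further cell filters are not given in the sources used here. Of 1556 barcodes, 1377 passed the cell limits, 48 of these had no hashtag and 44 more than 1, and 1285 were given to a condition. UMIs of the chosen cells were summed per pool and divided by all gene UMIs, as CPM. Ratios have exact conditional Poisson intervals and shares have Clopper-Pearson intervals, all at 95%. A fold against 0 UMIs would be taken from 3. No p-value was computed, because each condition is 1 pool.

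Members and gene lists were chosen with earlier results of these data known. Named genes were the 10 highest and 10 lowest per day by the interval bound nearest to 1, with a ratio of at least 1.5, at least 30 UMIs and at most 25% of the higher pool's UMIs in 1 cell. That ranking passed over genes of mitochondria, ribosomal proteins, clones, variable segments and the Y chromosome, and Xist. The class was described by the 20 genes with the highest lower bound, and genes of lists by their bound; others were chosen for their known role after values were seen. Coordinates came from GENCODE vM21, which matched 31011 of 31053 gene IDs. Python 3.11.15, pandas 2.3.3, scipy 1.17.1, scanpy 1.11.5 (Scrublet), Biopython 1.88 and Seurat 5.3.0 in R 4.3.3 (HTODemux) were used. The interval step was tested on simulated Poisson counts per gene, without cells. Such counts hold no spread between cells, so the test cannot show how well the intervals fit these data.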

Additional observations from a re-analysis of the deposited data

Results flagged for a closer look

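Of the 44 barcodes that carried more than 1 hashtag and were given to no condition, 8 met every expression limit of the class, and none of the 48 barcodes without a hashtag did. Among these 8 the leading hashtag held a median of 59.0% of the hashtag UMIs, with a range of 36.7% to 79.2%. Their median was 9745 gene UMIs, against 5484.5 in the class. They lie outside the data of the comparisons, which is why they are listed, and they entered none of them.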

How the results depend on the processing

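No paired analysis was possible because each condition is 1 pool, so there are no replicates to pair or to leave out. Of the main results under the alternatives tried, 347 values stayed within the limits set around the reported value, and 33 moved. The limit was a 1.5-fold change for gene counts and the interval of the reported value for the others. For list medians that interval came from the ranked gene ratios, in small lists their whole range, so few medians could move. Values near no change could switch direction within it, as the day 14 member share ratio did (0.901 to 1.11, reported 1.05). The strictest cell filter, with at least 500 genes and at most 5% mitochondrial UMIs, left 93 of the 196 cells. These were 34 in the sham pool, 34 on day 3, 9 on day 7 and 16 on day 14, so its values on the last 2 days rest on few cells. The class then made up 13.7% of the sham pool, 7.52% on day 3, 5.17% on day 7 and 12.3% on day 14, and early cells 41.2%, 52.9%, 66.7% and 50.0% of it in that order. It called 145 genes higher and 203 lower on day 14, and turned the day 7 median of the niche homing and adhesion list to 0.31, against -0.75. This filter keeps more early cells, which have less mitochondrial RNA (4.06% against 5.46% of UMIs in remaining cells).

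Counts of called genes depend on the limits. The reported counts were 348 higher and 315 lower on day 3, 235 and 387 on day 7, and 265 and 329 on day 14. With remaining cells only, 174 were higher on day 3 and 166 on day 14. Leaving out each gene's top cell per pool gave 145 higher and 686 lower on day 7 and 495 lower on day 14; this takes a larger part of the smaller pools by construction. With at least 10 UMIs the counts were 1240 and 920 on day 3, 996 and 1199 on day 7, and 989 and 1067 on day 14. With at least 100 UMIs they were 34 and 31, 16 and 41, and 12 and 29. A 2-fold limit gave 67 and 61, 40 and 119, and 36 and 95.

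Assignment by HTODemux left 186 cells, a hashtag purity of 95% or Scrublet calls changed no member, and Cd79a limits of 2 or 6 UMIs gave 202 or 178. Values of single genes and lists moved in 37 cases. A reversal was counted only for values of at least 1.5-fold, and there was 1, the day 7 adhesion median above. Among the moved values, the day 3 log2 ratio of Vpreb1 was 0.39 under the strictest filter, which ends its call, and 0.92 without the deepest 5% of cells. Type I interferon medians on day 7 and day 14, from 3 genes, moved most often. Depth limits day 7 most, with 26 cells.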

Other observations

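Remaining cells could be ordered by light chain content, which the class limits did not use. They were cut into 3 ranks of 48, 47 and 48 cells by Igkc and Iglc UMIs per 10000, with medians of 27.3, 63.3 and 139.6 per 10000. Rag1 measured 569 CPM in the low rank, 392 in the middle and 243 in the high rank, with intervals of 479.6 to 670.3, 319.7 to 477 and 185 to 315. Its detection was 89.6%, 83.0% and 50.0% of cells. Rag2 had 16, 10 and 7 UMIs in that order. Sox4, a factor of precursor survival, measured 1146, 1298 and 718 CPM. Class II genes differed, with H2-Ab1 at 338, 299 and 151 CPM, H2-Aa at 537, 490 and 378, but Cd74 at 1361, 2025 and 1746. Cells with the most light chain transcript thus had the least Rag1, while Vpreb3 (4047, 4313 and 4096 CPM) and Il7r (629, 649 and 567 CPM) kept close levels. Cells share a library and some share a pool, so this is a description with no test. The high rank held 40.7% of remaining cells in the sham pool, 26.8% on day 3, 30.0% on day 7 and 32.1% on day 14.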
